A study of Mus musculus with 9 samples.

Results

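The TALE homeobox genes encode transcription factors whose homeodomain carries a 3 residue loop extension, and 9 of them were followed here from Tgif1 null to wild type mouse embryo fibroblasts (MEFs): Tgif1, Tgif2, Meis1, Meis2, Meis3, Pbx2, Pbx3, Pknox1 and Pknox2. Every probe-set that the array's annotation assigns to one of these symbols alone was taken, whatever its signal, which gave 21 probe-sets of 45101 on the array and 9 genes of 18194 named. RNA came from 9 cultures of primary MEFs, each hybridised to 1 Affymetrix MOE430_2.0 array. The groups were 3 cultures of Tgif1 -/- MEFs at passage 3 (Tgif1 null P3), 3 of wild type MEFs at passage 3 (wild type P3) and 3 of wild type MEFs at passage 5 (wild type P5). All cells were isolated from 13.5 day embryos on a C57BL/6J x 129Sv/J mixed background and grown in serum without any treatment, and the labels describe replating at a fixed density for 3T3 growth without saying that the cultures on the arrays followed it. Tgif1 null cells at passage 5 were not analysed here, so passages are compared in wild type cells. The sources used here do not give how many embryos contributed to each culture or where the deleted part of Tgif1 lies relative to the array's probes.

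Tgif1 and Tgif2 are closely related repressors that bind DNA directly or join Smad complexes and limit transcription in response to TGFβ, and both recruit the corepressor Sin3, while Tgif1 also binds CtBP. Meis and Pknox (Prep) proteins bind a core DNA site much like that of the Tgifs but mostly activate transcription, and they form dimers with Pbx proteins, which in turn pair with Hox proteins on longer sites. Because Tgif1 and Tgif2 can act on the same targets, the comparison asks whether loss of Tgif1 was accompanied by a rise in Tgif2 or in other genes of the class, and how their levels moved with passage.

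The deposited values are log2 signals, in which 1 unit is a 2-fold difference. Array medians lay between 2.48 and 2.50, between 18127 and 18258 probe-sets were above 4 on an array, and 43.7% of probe-sets varied by less than 0.1 over the 9 arrays. Arrays of a group correlated with each other at 0.996 to 0.999 across probe-sets. The lowest value was 2.23 and a gene near it could not show a decrease. Of the 21 member probe-sets, 16 had a mean above 4 and 5 stayed below 4 on every array, but each of the 9 genes had at least 1 probe-set above 4. All 11 fibroblast markers had a mean above 4, with Vim at 15.17 and Col1a2 at 14.48 in wild type P3, while markers of other cell types ranged from the lowest value to well above 4.

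The loss of Tgif1 was evident on every null array. Tgif2 had higher values in the null than in wild type cells of the same passage but did not pass the adjusted test, and none of the other members passed it in this comparison. Tgif1 (probe-set 1422286_a_at) had log2 signals of 2.48, 3.21 and 2.50 in the Tgif1 null cultures, 9.82, 9.95 and 9.72 in wild type P3 and 10.06, 10.07 and 10.18 in wild type P5. The null arrays thus lay close to the lowest value of the scale and far below every wild type array. The difference from wild type P3 was −7.10 on the log2 scale (SE 0.20, adjusted p = 0.000116, limma's moderated test with Benjamini-Hochberg adjustment over all probe-sets), a size bounded by the floor of the scale. Between the wild type passages the Tgif1 cultures did not overlap, with means and SDs of 9.83 ± 0.11 for the earlier and 10.10 ± 0.06 for the later one (n = 3 each), but the difference of 0.27 (SE 0.20) did not pass the test (adjusted p = 0.627). That SE draws on all 9 arrays, and the null arrays near the floor had the largest SD, 0.42. With arrays left out in turn, the adjusted p of limma's test ran from 0.0841 to 0.877. Because each array measured a whole culture, fewer cells of a type and less RNA per cell cannot be told apart in any of these values.

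Tgif2, the closest relative of Tgif1, had values that did not overlap between any groups. Its probe-set 1434400_at read 9.50, 9.07 and 9.18 in the Tgif1 null, 8.61, 8.44 and 8.60 in wild type P3 and 7.44, 7.71 and 7.79 in wild type P5, so that the null cultures were highest, wild type P5 lowest and wild type P3 between them. The mean in the null, 9.25 ± 0.22 (SD, n = 3), was above that of wild type P3, 8.55 ± 0.10 (SD, n = 3), by 0.70 on the log2 scale (95% interval 0.37 to 1.04), or 1.63-fold. This difference had an unadjusted p of 0.00198 and an adjusted p of 0.0784 in limma's moderated test, and so was not called. With the study's cut-offs of 0.0001 for p and 0.5 for the log2 difference, it was not taken on the p of this comparison, and was taken where the p of limma's F test over all 3 comparisons was used. From P3 to P5 in wild type cells Tgif2 fell by 0.90 on the log2 scale (95% interval −1.24 to −0.56, SE 0.14, adjusted p = 0.0127), to 7.65 ± 0.18 (SD, n = 3). Set against wild type P5, the null was higher by 1.61 (95% interval 1.27 to 1.94, adjusted p = 0.00208), which is 3.04-fold. The 3 differences are not independent, since each group of arrays enters 2 of them.

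The second probe-set of Tgif2, 1431115_at, was dim. It read 3.95, 3.47 and 3.51 in the Tgif1 null, 3.07, 3.07 and 2.33 in wild type P3 and 3.07, 3.05 and 3.07 in wild type P5. Here too the null cultures lay above every wild type culture, by 0.82 over P3 (adjusted p = 0.219) and by 0.58 over P5 (adjusted p = 0.262), neither passing the test. It did not show the passage difference, with P5 0.24 above P3 (adjusted p = 0.724) in place of the 0.90 decrease of the bright probe-set. The identical value of 3.07 recurred on wild type arrays of both passages, so this dim probe-set says little about a decrease.

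**Figure D1:**
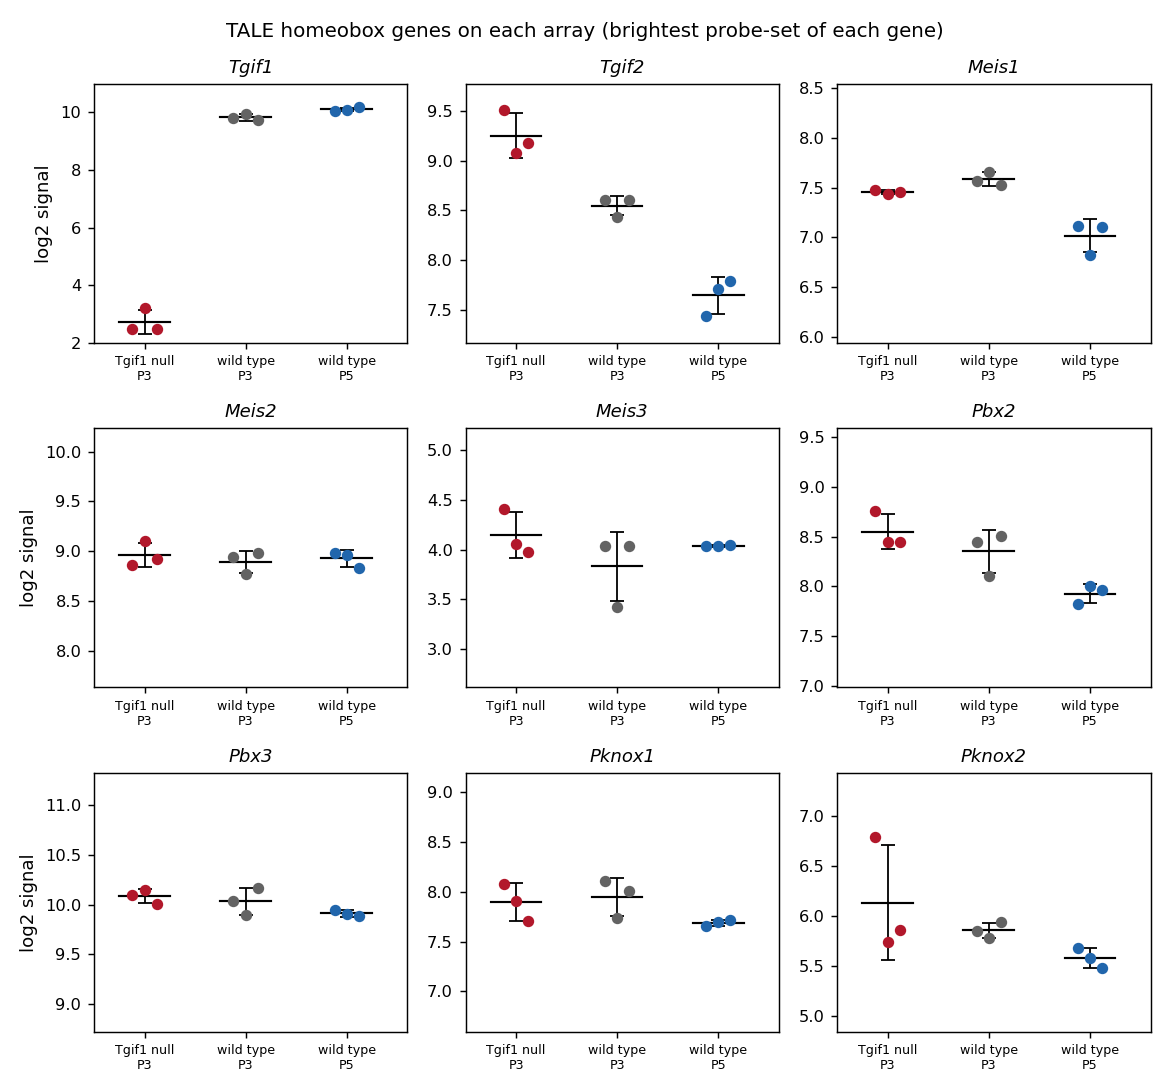
The log2 signal (y axis, a range of its own in each panel) of the brightest probe-set of each of the 9 genes is plotted for the 3 Tgif1 null P3, 3 wild type P3 and 3 wild type P5 cultures (x axis), 1 point per array, with the group mean as a long line and its SD (n = 3) as error bars. Tgif1 lies at 2.48 to 3.21 in the null, Tgif2 steps down from 9.25 to 8.55 to 7.65, Meis1 is lowest in P5, and the group means of Meis2 lie between 8.90 and 8.96.

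The call for Tgif2 between the null and wild type P3 differed between alternative ways of processing. The adjusted p fell under 0.05 when only probe-sets above a signal of 4 (adjusted p = 0.0161) or of 6 (adjusted p = 0.0119) on at least 3 arrays were tested, and with the mean of its probe-sets (adjusted p = 0.0496). It stayed above 0.05 when the arrays were centred on their medians (adjusted p = 0.0527) or quantile normalized again (adjusted p = 0.0874), with a robust, trended prior for the spread (adjusted p = 0.307), with the 6 arrays of these groups alone (adjusted p = 0.211) or with any array left out (adjusted p = 0.102 to 0.208). Over all 19 alternatives the difference stayed between 0.58 and 0.79 on the log2 scale. The decrease of Tgif2 with passage was lost in 5 of the 19, among them those without wild type P3 replicate 1 (adjusted p = 0.0559) or replicate 3 (adjusted p = 0.0523) and with the mean of its probe-sets (−0.33, adjusted p = 0.225). The difference between the null and wild type P5 passed in all 19, at 1.09 to 1.69. The mean of its probe-sets takes in the dim 1431115_at.

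**Figure D2:**
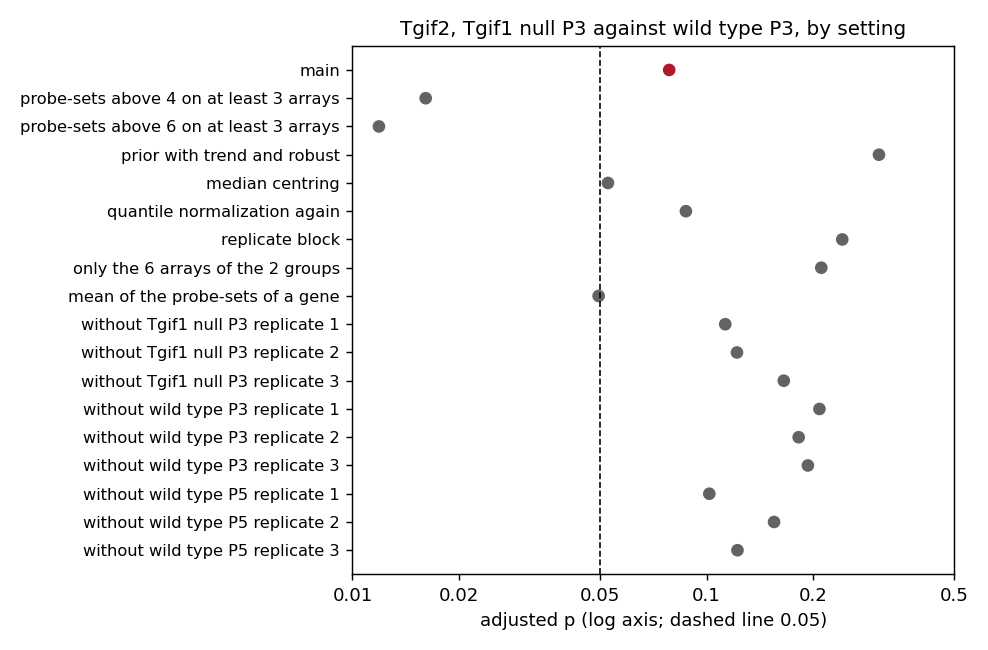
The adjusted p (x axis, log scale) of the difference in Tgif2 between Tgif1 null P3 and wild type P3 is shown for each way of processing (y axis, 1 point each, the reported setting in red), with a dashed line at 0.05. The reported value is 0.0784, and the points run from 0.0119, with dim probe-sets removed, to 0.307, with the robust, trended prior.

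RefSeq promoters, 250 bases before to 50 after a transcription start on GRCm38.p6, were given for Tgif1, Tgif2, Meis1, Meis2, Meis3 and Pbx2, 10 in all, and not for Pbx3, Pknox1 and Pknox2. The promoters of the deleted gene and of the 3 other genes with a called difference are printed 5′ to 3′ on the strand of the gene, with matches to 2 motifs in capitals: the core CTGTCA shared by Tgif and Meis sites, read as TGACAG on the other strand, and the GC box GGGCGG, read as CCGCCC, which Sp family factors bind.
Tgif1, chr17:70851161-70851460, minus strand: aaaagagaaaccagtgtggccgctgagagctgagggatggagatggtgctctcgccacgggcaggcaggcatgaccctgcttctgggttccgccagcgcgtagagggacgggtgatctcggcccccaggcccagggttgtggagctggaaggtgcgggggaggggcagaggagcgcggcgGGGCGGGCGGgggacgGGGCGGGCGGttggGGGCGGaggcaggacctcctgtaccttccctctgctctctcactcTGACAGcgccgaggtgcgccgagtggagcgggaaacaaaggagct
Tgif2, chr2:156839757-156840056, plus strand: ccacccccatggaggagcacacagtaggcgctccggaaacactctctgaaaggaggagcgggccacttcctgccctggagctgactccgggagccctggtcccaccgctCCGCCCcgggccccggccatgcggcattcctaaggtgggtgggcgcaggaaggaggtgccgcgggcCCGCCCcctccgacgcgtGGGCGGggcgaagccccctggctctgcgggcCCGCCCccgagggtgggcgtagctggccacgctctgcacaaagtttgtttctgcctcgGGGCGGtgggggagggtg
Meis1, chr11:19018920-19019219, minus strand: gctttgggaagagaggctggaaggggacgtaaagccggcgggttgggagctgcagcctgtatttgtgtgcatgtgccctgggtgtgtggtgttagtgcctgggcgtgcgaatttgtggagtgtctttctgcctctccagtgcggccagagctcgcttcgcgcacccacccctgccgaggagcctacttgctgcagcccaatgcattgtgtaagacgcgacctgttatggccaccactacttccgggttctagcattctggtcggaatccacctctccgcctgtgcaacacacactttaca
Pbx2, chr17:34592009-34592308, plus strand: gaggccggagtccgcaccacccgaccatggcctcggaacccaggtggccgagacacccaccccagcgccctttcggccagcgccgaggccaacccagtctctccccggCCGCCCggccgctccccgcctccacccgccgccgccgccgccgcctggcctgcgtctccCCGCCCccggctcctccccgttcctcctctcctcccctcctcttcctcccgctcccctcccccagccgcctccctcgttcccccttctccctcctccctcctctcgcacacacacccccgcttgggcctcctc
The Tgif2 window was 72.3% G and C, against a median of 52.7% over 32851 promoters, and held 5 GC boxes and no CTGTCA. The Tgif1 window printed, which of the 5 given for that gene holds the most matches, had 1 CTGTCA match, on the reverse strand, and 5 GC boxes, in part overlapping each other. Pbx2 had 2 GC boxes in a window of 76% G and C, and Meis1 had neither motif. Across the 10 member promoters CTGTCA was found in 2, both of Tgif1, and the GC box in 4, while 19.2% and 35.7% of all promoters hold them. The Pbx core TGATTGAT was in 0 of the 10 and in 0.746% of all promoters. These matches describe letters in a window and not binding.

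Among the Meis genes, which encode partners of Pbx and Hox proteins, Meis1 passed the test for passage and not for genotype at the same passage. Its bright probe-set 1450992_a_at read 7.48, 7.44 and 7.46 in the Tgif1 null, 7.57, 7.66 and 7.52 in wild type P3 and 7.12, 6.83 and 7.11 in wild type P5. The P5 cultures were the lowest, and the null cultures lay just under those of P3 without overlap. Meis1 fell by 0.57 on the log2 scale from P3 to P5 (95% interval −0.77 to −0.37, adjusted p = 0.0104) and was 0.44 higher in the null than in P5 (adjusted p = 0.0281). The null and P3 differed by −0.13 (95% interval −0.33 to 0.07, adjusted p = 0.768). The decrease with passage was lost in 5 of 19 alternatives, among them the robust, trended prior (adjusted p = 0.0779) and the 6 arrays alone (adjusted p = 0.0537). The difference between null and P5 lost its call in 11 of 19, among them the omission of any null array, of wild type P3 replicate 1 or 3 or of wild type P5 replicate 1 (adjusted p = 0.0506 to 0.0877). The other probe-sets of Meis1, 1443260_at and 1459423_at, stayed near the lowest value on all arrays and carry no information on direction.

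Meis2 was measured by 4 probe-sets and none passed the test in any comparison. The brightest, 1457632_s_at, read 8.86, 9.10 and 8.92 in the Tgif1 null, 8.94, 8.77 and 8.98 in wild type P3 and 8.98, 8.96 and 8.83 in wild type P5, and the 3 groups overlapped. Its interval for the null against P3 was −0.14 to 0.27 and for P5 against P3 −0.17 to 0.24. The other Meis2 probe-sets differed from P3 by 0.05 to 0.21 in the null and by −0.30 to 0.25 in P5. Meis3 was dim, at 4.41, 4.05 and 3.97 in the null, 4.03, 3.43 and 4.03 in P3 and 4.03, 4.03 and 4.05 in P5. Its 0.31 between null and P3 had an interval of −0.15 to 0.78, too wide to set a limit near the size seen for Tgif2.

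Pbx2 and Pbx3 encode the Pbx partners of the Meis and Pknox proteins. Pbx2 probe-set 1418893_at read 8.76, 8.44 and 8.45 in the Tgif1 null, 8.44, 8.10 and 8.51 in wild type P3 and 7.82, 8.00 and 7.96 in wild type P5. The P5 cultures lay below all others, while the null and P3 overlapped. Pbx2 was higher in the null than in P5 by 0.62 (95% interval 0.29 to 0.95, adjusted p = 0.0473). This call was lost in 14 of 19 alternatives, including the omission of any array but wild type P3 replicate 2 (adjusted p up to 0.160). Neither the −0.42 from P3 to P5 (adjusted p = 0.142) nor the 0.20 between null and P3 (adjusted p = 0.768) passed. The second probe-set of Pbx2, 1418894_s_at, gave another order, with 6.46, 6.47 and 6.47 in the null, 6.13, 5.90 and 6.21 in P3 and 6.21, 6.03 and 5.99 in P5. On it the null was apart from both wild type groups, by 0.38 over P3 (95% interval 0.17 to 0.60, adjusted p = 0.132) and 0.39 over P5 (adjusted p = 0.0589), and the passages did not separate (difference −0.00, interval −0.22 to 0.22). The third, 1449261_at, differed from P3 by 0.01 in the null and by −0.22 in P5 (adjusted p = 0.0969).

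Pbx3 read 10.10, 10.15 and 10.00 in the Tgif1 null, 10.04, 9.89 and 10.17 in wild type P3 and 9.95, 9.90 and 9.88 in wild type P5 on its brightest probe-set, 1447640_s_at. The null cultures overlapped those of P3. The interval of null minus P3 was −0.12 to 0.23. On probe-set 1421193_a_at, P5 was above P3 in every culture (7.50, 7.64 and 7.52 against 7.11, 7.34 and 7.16), a difference of 0.35 with an adjusted p of 0.110, where the brighter probe-set had −0.12. Pknox1, a partner of Pbx proteins, read 8.08, 7.90 and 7.70 in the null, 8.10, 7.73 and 8.00 in P3 and 7.65, 7.70 and 7.71 in P5 on 1437470_at. Its −0.05 between null and P3 had an interval of −0.35 to 0.25, and its −0.26 from P3 to P5 an adjusted p of 0.357. Pknox2 depended on a single array in the null, where replicate 1 read 6.79 beside 5.74 and 5.86, against 5.85, 5.78 and 5.94 in P3 and 5.68, 5.58 and 5.48 in P5. With that array the null was 0.28 above P3 (interval −0.38 to 0.93), and without it the difference was −0.06.

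**Figure D3:**
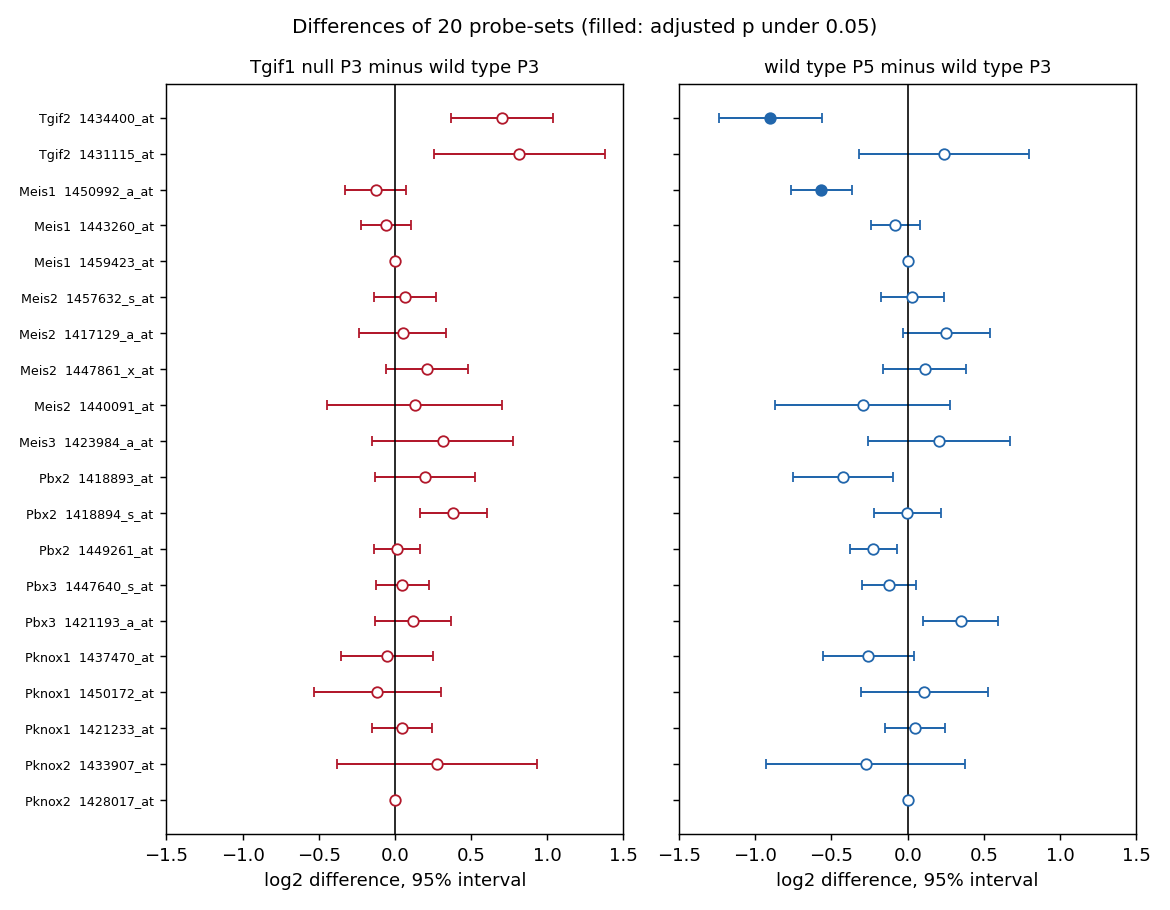
The log2 differences from wild type P3 (x axes) are drawn with 95% intervals for the 20 member probe-sets other than Tgif1 (y axis), for Tgif1 null P3 on the left and wild type P5 on the right, with filled points for an adjusted p under 0.05. No point is filled on the left, where Tgif2 at 0.70 and 0.82 lies farthest right, and Tgif2 at −0.90 and Meis1 at −0.57 are filled on the right.

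Counted over the 21 probe-sets, 0 rose and 1 fell (Tgif1 itself) between null and wild type P3, where 0.898% of all 45101 probe-sets rose and 0.692% fell. At an unadjusted p under 0.05 in limma's test, 4 of the 21 were different. Counted by gene on the brightest probe-set, 1 of the 9 members was higher and 1 lower at that p. Of all 18194 genes counted likewise, 1395 were higher and 1378 lower. For P5 against P3, 0 members were higher and 3 lower, beside 2206 and 2620 of all genes. The study's cut-offs (p under 0.0001, log2 difference of at least 0.5) took 1 on the p of the comparison (Tgif1, against 0.395% of all probe-sets) and 2 on limma's F p (Tgif1 and Tgif2, against 0.568%). From P3 to P5, 0 probe-sets rose and 2 fell (Tgif2 and Meis1), beside 4.29% that rose and 4.33% that fell over the array. At an unadjusted p under 0.05 in limma's test, 5 of the 21 were different. The cut-offs took 0 on the p of the comparison, against 1.74%, and 1 (Tgif2) on the F p, against 1.49%. Between the null and wild type P5, 3 were higher (Tgif2, Meis1 and Pbx2) and 1 lower (Tgif1), beside 3.58% higher and 3.65% lower, and the cut-offs took 2 (Tgif1 and Tgif2) either way, against 1.6% on the p of the comparison and 1.46% on the F p. Of the 16 member probe-sets with a mean above 4, groups did not overlap for 5 (31.2%), 9 (56.2%) and 10 (62.5%) in these comparisons, beside 24.5%, 50.1% and 47.3% of all probe-sets with a mean above 4. Of the 8 genes without Tgif1, 4 (Meis1, Meis2, Pbx3 and Pknox1) had an interval of the null to P3 difference that lay within 0.5 of 0 on their brightest probe-set, and Tgif2, Meis3, Pbx2 and Pknox2 did not. With 3 cultures against 3, an exact permutation test cannot give a p below 0.1, so that these calls rest on limma's model. In it, the spread of each probe-set over the 9 arrays (6 degrees of freedom) outweighed the prior shared across probe-sets (0.345 degrees of freedom).

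The change between groups was also compared between probe-sets of 1 gene. Among 14 comparisons of the change on 2 probe-sets of Meis2, Pbx2, Pbx3 or Pknox1, the per-culture differences between the probe-sets separated P5 from P3 for 4: Pbx3 (−0.47), Pbx2 (−0.42), Pknox1 (−0.37) and Meis2 (−0.22), in each case with the brightest probe-set having the lower value. Each had the smallest exact permutation p possible, 0.1 two-sided, and 0.35 after adjustment over the 14. Of these, the differences from P3 had opposite signs for Pbx3 and Pknox1. No such separation appeared between null and P3.

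The genes whose signals ran most like Tgif2 over the 9 arrays were Mdfi, Sox11, Asb4, Eif4e3 and Rbpms. They were ranked, among 2333 probe-sets with a mean of at least 6 and a range of at least 1, by the root mean square difference of the log2 values after each was centred on its wild type P3 mean. Mdfi, which encodes an inhibitor of myogenic basic helix-loop-helix factors, was nearest at 0.119, and its mean stepped from 6.92 ± 0.25 (SD, n = 3) in the null through 6.07 ± 0.16 in P3 to 5.18 ± 0.21 in P5. Sox11, a SoxC transcription factor, followed at 0.181, and the ankyrin repeat protein gene Asb4, the cap-binding protein gene Eif4e3 and the RNA-binding protein gene Rbpms lay at 0.208 to 0.213. In all, 13 probe-sets came within 0.25. None of these probe-sets was as close to Tgif1: Pclaf, a PCNA-binding factor, was nearest at 1.58, then Wdfy1 at 2.19, Tmem87a at 2.24, Ntn4 at 2.29 and Sema5a at 2.54.

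**Figure D4:**
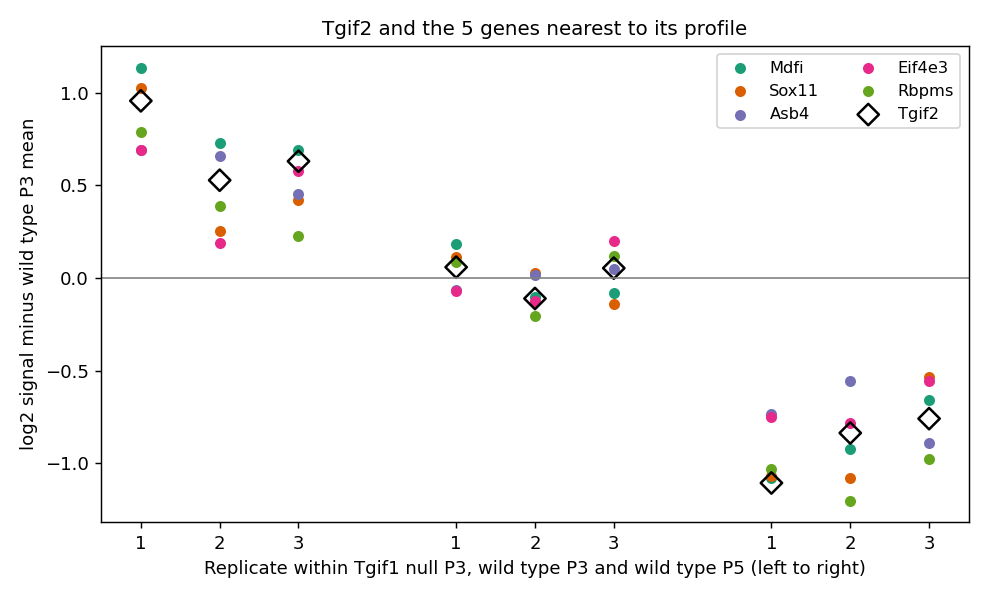
Each point is the log2 signal minus the wild type P3 mean of that gene (y axis) on 1 of the 9 arrays (x axis, replicates 1 to 3 of Tgif1 null P3, wild type P3 and wild type P5 from left to right), for Tgif2 (diamonds) and the 5 genes nearest to it (coloured points). All 6 genes lie above 0 in the null and below 0 in P5, and these genes were picked for that likeness.

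Some markers of other cells also differed between the groups. The muscle genes Myh3, Actc1, Tnnc1, Tnnc2, Tnni1, Des and Myog were on average highest in the null and lowest in P5, as was Tgif2. Summed macrophage levels ran in the same order. Acta1 and the summed muscle and fibroblast signals did not. Of 11 skeletal muscle markers, 7 rose in the null against wild type P3, among them the myogenic transcription factor gene Myog (2.18, adjusted p = 0.0103) and the contractile genes Tnnc2 (3.14, adjusted p = 0.00424), Myh3 (2.35, adjusted p = 0.00575) and Actc1 (2.30, adjusted p = 0.0123). Between P3 and P5, 4 of them fell, with Actc1 at −3.93 (adjusted p = 0.000569) and Myh3 at −2.58 (adjusted p = 0.000976), and 1 rose. The log2 of their summed signal ran from 11.85 to 12.29 in the null, 10.94 to 11.05 in P3 and 12.09 to 12.37 in P5. The sum in P5 was mostly Acta1, which alone read 12.03, 12.18 and 12.32 there. Acta1 was 1.60 higher in P5 than in P3 (adjusted p = 0.000389 in limma's test). Of the defining myogenic factors, Myod1 and Myf5 stood at the lowest value, 2.23, in all groups, while Myog had means of 5.72 in the null, 3.54 in P3 and 2.71 in P5. Of 14 macrophage markers, 1 (Ctss, 1.89, adjusted p = 0.00977) rose in the null, with 9 higher at an unadjusted p under 0.05, and 0 passed from P3 to P5 (1 higher and 1 lower at an unadjusted p under 0.05), with summed levels of 9.79 to 10.41 in the null, 9.10 to 9.22 in P3 and 8.68 to 8.86 in P5, and Ptprc, Itgam and Aif1 at or near the lowest value. Of 7 endothelial, 5 epithelial and 6 neural markers measured, 0 passed between null and P3 in limma's adjusted test, and 1, 0 and 1 had an unadjusted p under 0.05. Several of them were expressed, such as the keratin genes Krt18 (8.91 in P3) and Krt19 (9.89 in P3) and the endothelial Egfl7 (6.45 in P3), while Cdh1 and Pecam1 stood at the lowest value in every group. With passage, Krt18 fell by 2.66 (adjusted p = 0.000411), the summed epithelial level lay at 10.42 to 10.58 in P3 and 9.56 to 9.81 in P5, and the neural Map2 rose by 1.07 (adjusted p = 0.0454). No endothelial marker passed with passage in limma's adjusted test, and 1 had an unadjusted p under 0.05. The summed fibroblast markers lay at 16.90 to 17.05 in the null and 16.94 to 16.95 in P3, with Dcn, a matrix proteoglycan gene, whose signal fell by 0.73 in the null (adjusted p = 0.0317). With passage, 4 of the 11 rose (Col1a2, S100a4, Fn1 and Lum), and the sum in P5 was 17.20 to 17.27. The part of these cells in the level of Tgif2 was not tested.

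Of 8 further TALE genes measured, of 11 listed, 0 passed limma's adjusted test between null and P3, with 1 higher (Mkx) and 1 lower at an unadjusted p under 0.05. Mkx, which acts in tendon, rose by 0.69 from P3 to P5 (adjusted p = 0.0080) and was 0.42 higher in the null without passing (adjusted p = 0.112). The median difference of the 8 was 0.00 in each comparison, equal to that of all genes, and 3 of them stayed below 4 on every array. A further list held genes for Smad proteins, for corepressors of Tgifs or Smads and for retinoid receptors. Of its 14 genes measured, of 16 listed, 0 passed between null and P3. At an unadjusted p under 0.05 in limma's test, 1 was higher and 4 lower, beside 1395 and 1378 of all 18194 genes. The median difference of the 14 was −0.07. From P3 to P5, Sin3a (−0.49, adjusted p = 0.0302) and Ctbp1 (−0.15, adjusted p = 0.0135) fell, both encoding corepressors.

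Of 36 Hox genes and other partners of Pbx and Meis measured, of 42 listed, 2 rose and 0 fell between null and P3, namely Hoxa5 (0.52, adjusted p = 0.0218) and Hoxb9 (0.37, adjusted p = 0.0107), and 6 rose and 3 fell from P3 to P5. Hoxa5 read 10.06, 10.11 and 10.09 in the Tgif1 null, 9.64, 9.41 and 9.65 in wild type P3 and 10.09, 10.10 and 10.05 in wild type P5, so that P3 stood below both other groups. From P3 to P5, Hoxc8 (1.04, adjusted p = 0.00276) and Pbxip1, which encodes a Pbx-interacting protein (0.94, adjusted p = 0.00355), also rose, and Hoxa9 fell by 0.57 (adjusted p = 0.00706). Over all 18194 genes, 274 rose and 195 fell in the null against P3, while P5 had 1116 genes up and 1293 down against P3. The medians of the list, 0.03 and 0.02, lay near the 0.00 of all genes.

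The 20 measured genes next to Tgif1, 10 on each side, were followed because the allele was kept on a mixed background. Between null and P3, 2 rose and 0 fell: Ptprm, a receptor phosphatase gene, by 0.27 (adjusted p = 0.0365) and Myom1, a sarcomere gene, by 1.31 (adjusted p = 0.0293). Of all 18194 genes, 274 rose and 195 fell in this comparison. At an unadjusted p under 0.05 in limma's test, 3 of the 20 were higher and 4 lower, beside 1395 and 1378 of all genes. Against wild type P5, 0 of the 20 rose and 3 fell in the null, beside 1106 and 969 of all genes. Emilin2 read 6.75 on every null array, below every wild type array. Its null values were identical (SD 0), which lowers the spread that its tests rest on. Its difference was −0.57 from P3 (adjusted p = 0.116) and −1.31 from P5 (adjusted p = 0.00295). Ptprm and Myom1 also rose from P3 to P5 in wild type cells, by 0.45 (adjusted p = 0.00197) and 2.36 (adjusted p = 0.00121). The median of the 20 between null and P3 was 0.00, as for all genes, and the origin of the flanking DNA was not tested.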

How the data were processed

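RNA from 9 primary MEF cultures was measured on Affymetrix MOE430_2.0 arrays. The log2 signals that the authors deposited came from GCRMA, with 1 value per probe-set on each array. Limma is the other tool in the submitters' processing notes, and the sources used here do not give the version of either. GCRMA sets a floor under dim probe-sets, so differences near it are compressed. The number of arrays limits the precision.

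The deposited log2 values were used unchanged in R 4.3.3 with limma 3.58.1. A model of 3 group means over the 9 arrays was moderated by eBayes with default settings, and each contrast was tested with Benjamini-Hochberg adjustment over 45101 probe-sets and called at an adjusted p under 0.05. The methods select at p under 0.0001 and a log2 difference of at least 0.5 in pairwise comparisons and name no F test. These cut-offs were applied to the moderated F p over the 3 contrasts and, added after seeing the data, to the p of each comparison. Between null and P3 they took 256 probe-sets on the F p and 178 on the p of the comparison. Both are fewer than the study reports for that comparison. The prior added only 0.345 degrees of freedom to 6. Of the probe-sets, 34958 matched 1 gene symbol through entrez numbers, 932 matched several and 9211 were not named here.

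All member probe-sets are reported, the one with the highest mean stands for its gene, and of other lists up to 5 genes with the smallest p that passed between null and P3 or P5 and P3 are named. A few others (Mkx between null and P3, the markers at the lowest value, Krt19 and Egfl7) were named after their values were seen. Members and lists were chosen with earlier results of these data known. The fits were tested on simulated data. Same replicate numbers correlated at −0.491 to 0.395 and so do not pair the cultures. Alternatives were both uses of these cut-offs, filters at 4 and 6, a trended robust prior, median centring, quantile normalization, the replicate block, 6 arrays alone, the mean of the probe-sets of a gene, and each array left out. Promoters and gene order came from RefSeq tables of GRCm38.p6. No protein sequences were used here.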

Additional observations from a re-analysis of the deposited data

How the results depend on the processing

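Counts of member probe-sets called were 1 between null and wild type P3, 2 between P5 and P3 and 4 between null and P5. They became 2, 1 and 2 with the study's cut-offs on the F p, 1, 0 and 2 with the same cut-offs on the p of each comparison, an alternative chosen after seeing the data, 3, 4 and 6 with probe-sets above a signal of 4 and 3, 4 and 5 above 6, where fewer probe-sets were tested. With the trended robust prior, and also with the 6 arrays of the 2 groups alone, they were 1, 1 and 2. With the replicate number as a block, which does not pair these cultures (2 of 9 arrays were most like an array of their own number), they were 1, 0 and 2. The block raised the adjusted p of Tgif2 to 0.242, 0.0599 and 0.0217 in these comparisons, and that of Meis1 between P5 and P3 to 0.0513. With arrays left out in turn, the counts ran from 1 to 1, 1 to 3 and 2 to 5. The count of P5 against P3 was 1 without wild type P3 replicate 1 or 3, and that of null against P5 was 2 without any 1 null array, wild type P3 replicate 1 or 3, or wild type P5 replicate 1. With the mean of the probe-sets of a gene, 2 genes were called between null and P3 in place of 1. The cause of these shifts was not tested.

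Meis1 between null and P5 lost its call in 11 of 19 alternatives (adjusted p up to 0.171) and Pbx2 in 14 (up to 0.160), while Tgif1 kept it in all 19 against P3 and P5. Uncalled differences that changed sign were small. With the mean of the probe-sets, Pbx3 was 0.113 between P5 and P3 and −0.0287 between null and P5, and Pknox1 was −0.00622 between null and P5. With arrays left out, null minus P3 ran from −0.00278 to 0.117 for Meis2, −0.0191 to 0.118 for Pbx3, −0.158 to 0.0454 for Pknox1 and −0.0559 to 0.471 for Pknox2. Likewise null minus P5 ran from −0.0342 to 0.0851 for Meis2 and −0.0261 to 0.193 for Meis3, and P5 minus P3 from −0.0314 to 0.0789 for Meis2. Signals near the floor (5 of 21 probe-sets below 4 on every array) limit what can be seen of decreases.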
